A study of Arabidopsis thaliana with 12 samples.

Results

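The ribosomal protein genes that lie scattered over the plastid genome were followed: *rps2*, *rps4*, *rps14*, *rps15*, *rps16* and *rps18* of the small subunit, and *rpl20*, *rpl32* and *rpl33* of the large subunit. These 9 were chosen by position, outside the operon that runs from *rpl23* to *rpoA*, out of 140 gene models in the plastid table, of which 97 (all 9 included) were tested. The 12 libraries, 3 for each of 4 groups, were made from rRNA-depleted RNA of *Arabidopsis thaliana* seedlings grown for 4 days. Col-0 was the wild type, and the other groups were seedlings of 1 mutant line, *gun1-102*, sorted by cotyledon colour into *gun1W* (white), *gun1M* (marbled) and *gun1G* (green). The line is a T-DNA mutant of *GUN1*, a gene for a pentatricopeptide repeat protein of plastids, and all groups grew on MS medium with sucrose in long days. The 3 mutant groups shared 1 genotype and differed by the cotyledon colour used to sort them, and the labels give the tissue as cotyledon where the methods describe seedlings. The labels do not say whether the libraries of a group came from separate cultures, so p-values measure the spread between these libraries.

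Plastids build bacterial-type ribosomes from rRNA and proteins, and the proteins come partly from plastid genes and partly from nuclear genes whose products are imported. Plastid genes are mostly read as long polycistronic RNAs that are then cut and trimmed, so that neighbours can share a primary transcript and still differ in the level of the mature RNA. They are transcribed by a bacterial-type RNA polymerase with plastid-encoded subunits and by phage-type polymerases encoded in the nucleus. In tobacco, most of these 9 genes cannot be removed from the plastid genome, whereas *rps15* and *rpl33* can.

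In the RefSeq annotation of TAIR10.1, *rps14* (ATCG00330) lies at plastid genome positions 36938 to 37240 on the minus strand, 134 bases downstream of *psaB*. *rps2* (ATCG00160, 15013 to 15723, minus strand) sits between *rpoC2* and *atpI*, 214 and 242 bases away. *rps4* (ATCG00380, 45223 to 45828, minus strand) lies between *ndhJ* and *ycf3*, and *rps15* (ATCG01120, 123296 to 123562, minus strand) between *ycf1.2* and *ndhH*. *rpl33* (ATCG00640, 67488 to 67688) and *rps18* (ATCG00650, 67917 to 68222) follow *psaJ* on the plus strand, and *rpl20* (ATCG00660, 68512 to 68865) runs towards them on the minus strand. *rpl32* (ATCG01020, 113449 to 113607, plus strand) lies between *ndhF* and *ycf5*. *rps16* (ATCG00050, 5084 to 6188, minus strand) is the only one of the 9 with an intron and lies between *psbK* and *matK*. The coding sequences were 159 to 711 bases long. Their GC content ran from 30.7% in *rps15* to 41.3% in *rps14*.

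The coding sequences, or their first 150 bases, of the genes on which the results turn are given from the reference plastid genome, 5′ to 3′ on the coding strand, with the start codon in capitals. *rps14* and *rpl32* fell most in *gun1W*, and *rps16* and *rps18* rose in *gun1M*.
rps14: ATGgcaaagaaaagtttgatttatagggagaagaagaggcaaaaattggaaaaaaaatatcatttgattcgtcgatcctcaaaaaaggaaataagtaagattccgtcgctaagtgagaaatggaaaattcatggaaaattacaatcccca
rpl32: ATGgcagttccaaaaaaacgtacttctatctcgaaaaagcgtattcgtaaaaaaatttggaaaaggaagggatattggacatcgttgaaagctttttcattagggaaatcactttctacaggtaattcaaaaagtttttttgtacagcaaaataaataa
rps16: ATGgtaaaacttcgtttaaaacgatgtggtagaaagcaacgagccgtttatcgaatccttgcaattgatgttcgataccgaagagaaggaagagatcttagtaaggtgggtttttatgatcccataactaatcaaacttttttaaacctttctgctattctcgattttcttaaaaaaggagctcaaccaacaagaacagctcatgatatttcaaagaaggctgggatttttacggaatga
rps18: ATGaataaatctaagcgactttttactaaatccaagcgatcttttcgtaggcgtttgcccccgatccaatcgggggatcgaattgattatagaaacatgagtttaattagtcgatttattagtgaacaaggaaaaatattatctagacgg

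A table of predicted GUN1 target sites that came with the study lists 97 sites in the plastid genome, found with the least strict form of the predicted sequence. All 97 stood at their stated positions in the reference. Sites inside *rps2* or within 500 bases of *rps4*, *rps16*, *rpl20* and *rpl32* are shown on the strand of the match, with the site in capitals and 8 bases on each side.
rps2 site: tatcaggcAATCCCGTCATatatttaa
rps4 site: gattggtgAATTTGTTGAAagtacgga
rps16 site: ttatgaatAATTTCTTCATcataaaaa
rpl20 site: tactttgaAAGGCCTTGATataaaaaa
rpl32 site: aaaataaaAACTTCTTCAAaatcctta

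Of these, the sites near *rps4* and *rps16* were on the strand of the gene. They lay at positions 44918 to 44928, which is 295 bases downstream of *rps4*, and at 4675 to 4685, which is 399 bases downstream of *rps16*. Distances are counted from the end of the site nearer to the gene. The site at 15242 lay inside *rps2* on the opposite strand. Those near *rpl20* and *rpl32* were also opposite to the gene, 176 bases upstream and 378 bases downstream. A match is a description of the letters and was not tested here as a binding site. The paper names *rps2* and *rpl20* among transcripts that were enriched with tagged GUN1 protein and hold a predicted site. It sequenced no input libraries and treats such transcripts as candidates.

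Values were TPM (a level per transcript length, summing to 1000000 in each library), as deposited, multiplied by 1 factor per library that sets the median nuclear gene equal in all libraries. They are called scaled TPM. The factors were 0.538 to 0.691 in *gun1W* and 0.908 to 1.34 in the other groups. Plastid transcripts held 9.29 to 12.5% of all TPM in *gun1W* and 27.7 to 41.5% in the libraries of the other groups. Read depth cannot be told from TPM. In these bulk samples fewer cells of a type and less RNA per cell cannot be told apart. RNA of the *GUN1* gene, summed over its transcripts, was still read in all libraries. It stood at 20.4 to 39.3 scaled TPM in the mutant libraries and 44.0 to 46.4 in Col-0. Its log2 difference from Col-0 was −0.48 in *gun1W* (adjusted p = 0.0898), −0.67 in *gun1M* (adjusted p = 0.026) and −0.82 in *gun1G* (adjusted p = 0.0263, limma). The paper reports that reads were missing from part of an early exon and from the later exons of this gene in every mutant group. The summed level therefore does not measure intact *GUN1* RNA in the mutant libraries. Of 4 mesophyll markers, the light-harvesting gene *LHCB1.2* (−1.54, adjusted p = 1.31e-04) and the Rubisco subunit gene *RBCS1A* (−0.63, adjusted p = 0.03955) fell in *gun1W* against Col-0 (limma). The background was 12.5% of gene models outside the plastid lower. *CA1* (−0.22, adjusted p = 0.22) and *RCA* (−0.09, adjusted p = 0.675) did not differ detectably there. In *gun1M* *LHCB1.2* was lower (−0.73, adjusted p = 0.0102) and *CA1* higher (0.41, adjusted p = 0.0313). The summed level of the 3 root markers was 15.1 to 20.6 scaled TPM in Col-0 and 16.0 to 18.6 in *gun1W*. It was 12.6 to 16.7 in *gun1M* and 10.1 to 14.3 in *gun1G*, where all libraries lay below those of Col-0. Of these markers *COBL9* was lower in *gun1M* (−0.81, adjusted p = 0.018, limma), beside 13.6% of gene models outside the plastid. *EXPA7* (−0.12, adjusted p = 0.658) and *PIN2* (0.09, adjusted p = 0.724) did not differ detectably there. The 3 seed storage markers summed to 1.29 to 18.4, with *SESA1* at 0 in Col-0, and 2 meristem markers to 0.224 to 1.42, with *WUS* at 0 in Col-0 and *gun1G*.

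In Col-0 the mean levels of the 9 genes ran from 30.8 to 2721 scaled TPM. *rpl20* (2721 ± 1361, SD, n = 3) and *rps14* (2666 ± 351) led, followed by *rpl32* (1665 ± 557), *rps4* (1486 ± 50.1), *rps15* (850 ± 240), *rps2* (370 ± 119) and *rps18* (335 ± 128). *rpl33* (46.6 ± 25.1) and *rps16* (30.8 ± 16.3) were far below the rest, all as scaled TPM. Of the neighbours in this order, *rpl20* and *rps14*, *rpl32* and *rps4*, *rps2* and *rps18*, and *rpl33* and *rps16* overlapped in range, and the other neighbours did not. *rpl20* also overlapped *rpl32*, which is not its neighbour. In *gun1W* *rpl20* still had the highest mean, followed by *rps4* and then *rps14*. In *gun1M* and *gun1G* *rps14* came first and *rpl20* second.

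**Figure D1:**
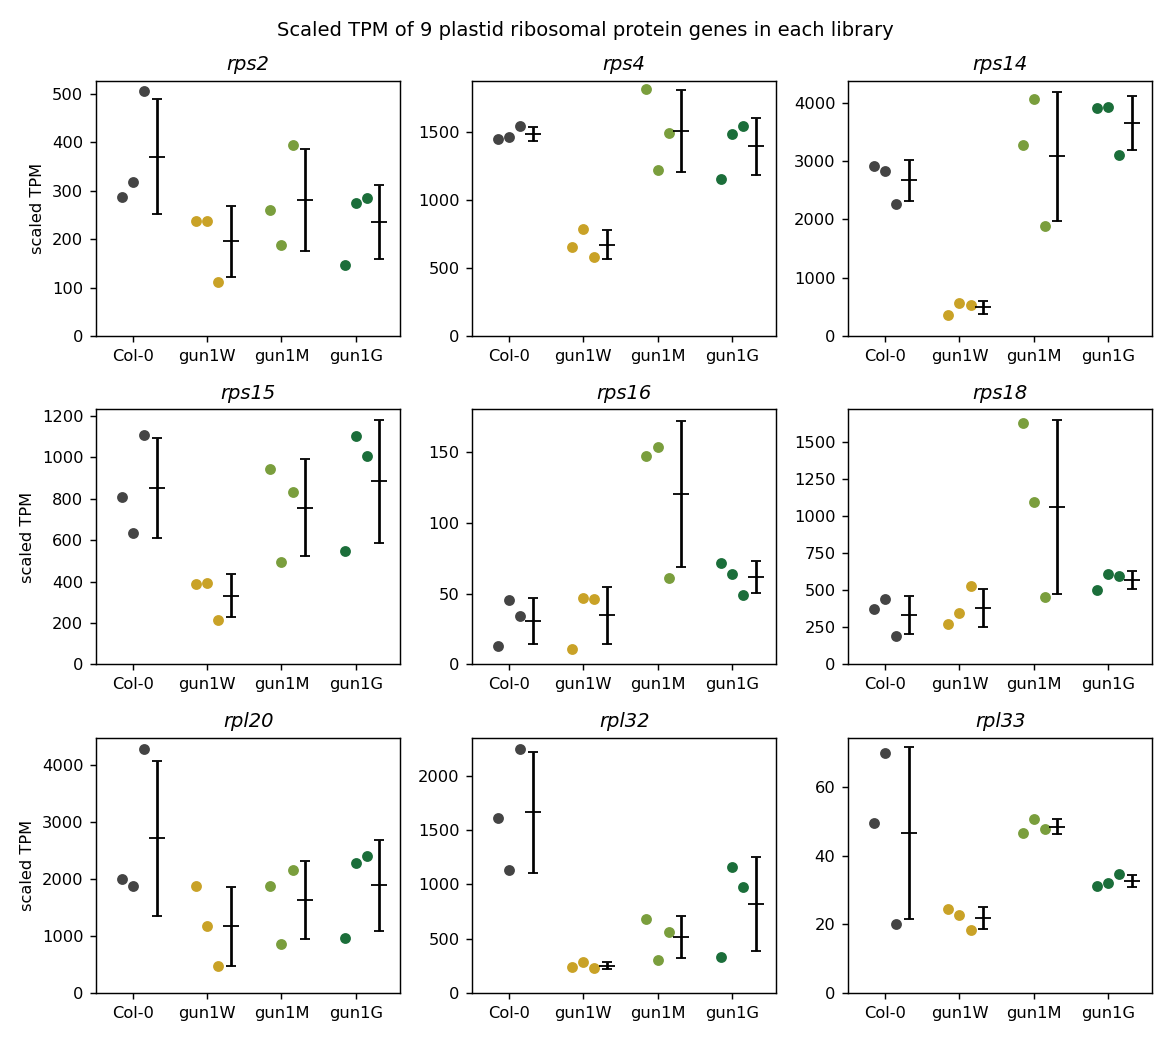
Scaled TPM (y axis, linear from 0, a separate range for each gene) of the 9 genes in each of the 12 libraries; points are libraries, and the bar beside them is the mean ± SD of 3. The *gun1W* points lie below all Col-0 points for *rps2*, *rps4*, *rps14*, *rps15*, *rpl20* and *rpl32*, and the *gun1M* points lie above all Col-0 points for *rps16* and *rps18*.

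Comparison of *gun1W* with Col-0 asked how these RNAs stood in the seedlings that had bleached most. 6 of the 9 were lower in *gun1W* on the scaled TPM scale, none was higher, and *rps16*, *rps18* and *rpl33* did not pass the test (limma over 97 plastid gene models, adjusted p under 0.05). The background was 79.4% of plastid gene models lower in *gun1W*, so the count itself does not set the 9 apart. Their median log2 difference was −1.15, beside −2.36 over all 97. These directions rest on the scaling: in TPM as deposited, where the median nuclear gene itself stood 1.05 higher in *gun1W* and 0.26 higher in *gun1M* than in Col-0 on the log2 scale, *rps14* (−1.41) and *rpl32* (−1.63) were called lower and *rps18* (1.26) higher, *rps2* (0.09) and *rpl33* (0.11) changed sign, and 3 of the 9 passed the test. The background over all 97 models with TPM as deposited is not given here. The count of 3 therefore does not set the 9 apart. As a share of the plastid total, 6 of the 9 took a larger share in *gun1W*, against 34.0% of all models. The median difference in share was 1.61 beside 0.30.

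**Figure D2:**
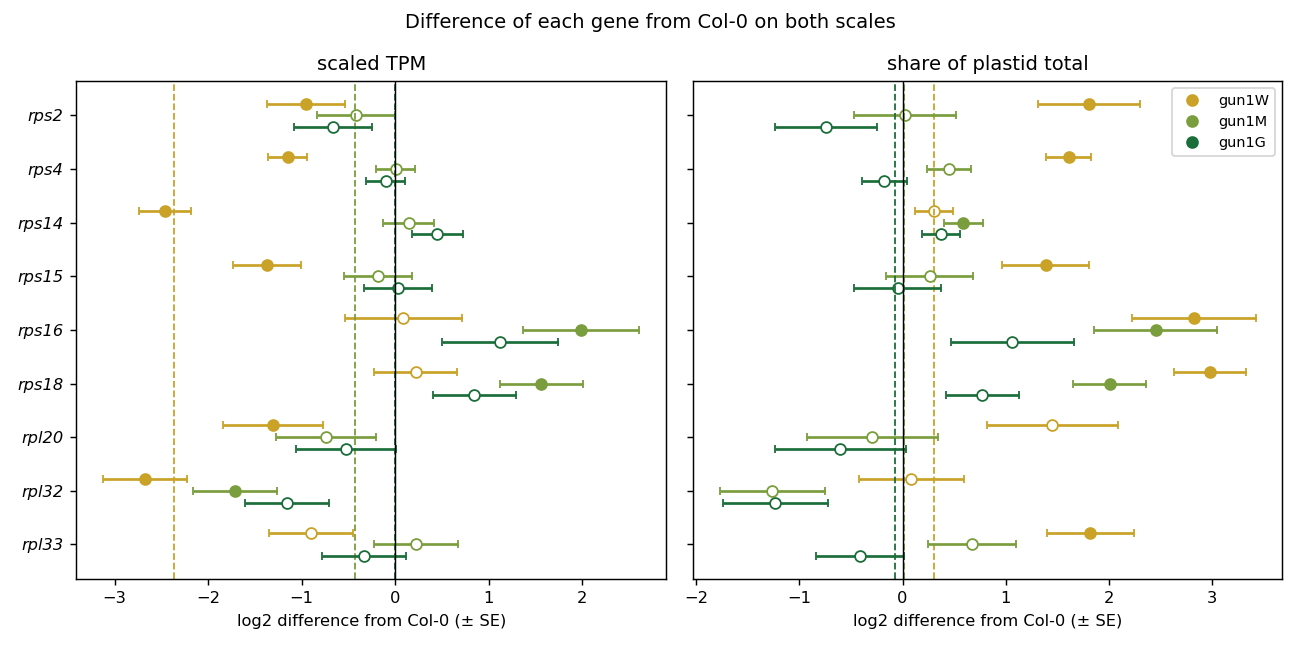
Log2 difference from Col-0 (x axis, ± SE) of each gene in *gun1W*, *gun1M* and *gun1G*, as scaled TPM (left) and as share of the plastid total (right); filled points passed the test, open points did not, and dashed lines give the median of the 97 plastid gene models for each group. On the left *rps14* (−2.46) and *rpl32* (−2.67) lie at the *gun1W* median of −2.36 or below it, and on the right *rps16* (2.83) and *rps18* (2.98) lie farthest to the right.

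*rps14* encodes a protein of the head of the small subunit and is read together with *psaA* and *psaB*, the core subunits of photosystem I. Its scaled TPM was 2912, 2822 and 2265 in the Col-0 libraries, 364, 571 and 536 in those of *gun1W*, 3279, 4061 and 1886 in those of *gun1M*, and 3903, 3919 and 3107 in those of *gun1G*. All *gun1W* libraries lay below all others, and all *gun1G* libraries above Col-0. The log2 difference of *gun1W* from Col-0 was −2.46 (SE 0.28, adjusted p = 3.16e-06), close to the median of all plastid models. It did not differ detectably in *gun1M* (0.14, SE 0.28, adjusted p = 0.68) or *gun1G* (0.45, SE 0.28, adjusted p = 0.539). Relative to *psaB* within the same library, the log2 ratio was −2.44 for Col-0 beside −1.96, −1.81 and −2.07 for *gun1W*, *gun1M* and *gun1G*. The *gun1M* and *gun1G* ratios to *psaB* lay above all those of Col-0 and the *gun1W* ratios overlapped them, while to *psaA* those of *gun1W* and *gun1M* lay above and those of *gun1G* overlapped. The ratio to *psaB* did not pass the test over the 4 groups (exact permutation p = 0.0959, adjusted p = 0.146 over 16 pairs), nor did that to *psaA* (exact p = 0.0728, adjusted p = 0.146). *psaB* itself stood at 14356 ± 539 scaled TPM in Col-0 and 1881 ± 78.9 in *gun1W*. The share of *rps14* in the plastid total was 0.538 to 0.635% in Col-0 and 0.75 to 1.09% in *gun1M*, without overlap, a difference of 0.59 (SE 0.19, adjusted p = 0.0342). That call was lost when Col-0 replicate 2 or 3, or *gun1M* replicate 1 or 2, was left out (0.43 to 0.64 among these, adjusted p up to 0.128).

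*rps2* lies inside the operon of the ATP synthase genes, between *rpoC2*, a subunit of the plastid-encoded RNA polymerase, and *atpI*, a membrane subunit of ATP synthase. Its scaled TPM was 286, 317 and 506 in the Col-0 libraries, 238, 238 and 111 in those of *gun1W*, 261, 187 and 395 in those of *gun1M*, and 147, 275 and 284 in those of *gun1G*. The *gun1W* libraries lay below all Col-0 libraries, and so did those of *gun1G*. The difference of *gun1W* from Col-0, −0.95 (SE 0.41), lay just under the threshold (adjusted p = 0.05 after rounding). It missed the threshold without Col-0 replicate 2 or 3, *gun1W* replicate 3, *gun1M* replicate 1 or *gun1G* replicate 2 or 3 (−1.04 to −0.59, adjusted p up to 0.21), and with TPM as deposited it was 0.09. The neighbour *atpI* stood at 4812 ± 60.1 scaled TPM in Col-0 and 824 ± 127 in *gun1W*. The log2 ratio of *rps2* to *atpI* was −3.74 for Col-0, −2.14 for *gun1W*, −3.45 for *gun1M* and −4.44 for *gun1G*, and it differed over the groups (exact permutation p = 0.00435, adjusted p = 0.0187). The *gun1W* ratios lay above all Col-0 ratios and the *gun1G* ratios below them. The ratio to *rpoC2* was 2.11 for Col-0, 1.16 for *gun1W*, 0.42 for *gun1M* and 1.64 for *gun1G*, with *gun1M* below all Col-0 libraries, and did not pass the test (exact p = 0.0799, adjusted p = 0.146). A stretch of chromosome 3 matches the whole *rps2* coding sequence at 96.4% identity over 713 aligned bases, so reads of the copies may have been shared between them. Of the other genes only *rps4* and *rpl20* had any match outside the plastid, of at most 211 and 101 aligned bases.

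*rps4* encodes a protein that binds the small-subunit rRNA early in assembly, as known from *Escherichia coli*. It was the steadiest of the 9 in the wild type, with 1451, 1463 and 1543 scaled TPM in Col-0, and had 652, 787 and 582 in the *gun1W* libraries, 1816, 1219 and 1496 in those of *gun1M*, and 1155, 1488 and 1546 in those of *gun1G*. Only *gun1W* stood apart, below all other libraries, at a difference of −1.15 (SE 0.21, adjusted p = 2.04e-04) from Col-0. Its share of the plastid total rose there by 1.61 (SE 0.22, adjusted p = 9.89e-05), to 0.866 to 1.11% from 0.295 to 0.366%. *ndhJ*, 2848 bases upstream of it and encoding a subunit of the plastid NAD(P)H dehydrogenase, fell from 4064 ± 94.6 to 269 ± 2.44 scaled TPM. The log2 ratio of *rps4* to *ndhJ* was −1.45 for Col-0, 1.31 for *gun1W*, −0.27 for *gun1M* and −1.79 for *gun1G*. All 3 mutant groups lay outside the Col-0 range, *gun1G* below it, and the exact permutation p was 6.49e-05, the smallest that 15400 distinct partitions allow (adjusted p = 0.00104). With *ycf3*, a photosystem I assembly factor gene on the other side, the ratio was −0.75 for Col-0, −0.61 for *gun1W*, −1.07 for *gun1M* and −1.14 for *gun1G*. The *gun1G* ratios lay below all those of Col-0 and the other groups overlapped it, and the test over the groups missed the threshold (exact p = 0.11, adjusted p = 0.147).

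*rps15*, whose product binds small-subunit rRNA early in *E. coli*, lies between *ycf1.2*, which encodes a subunit of the protein import apparatus, and *ndhH*, another NAD(P)H dehydrogenase gene. Scaled TPM was 808, 634 and 1109 in the Col-0 libraries, 387, 394 and 213 in those of *gun1W*, 944, 496 and 829 in those of *gun1M*, and 547, 1102 and 1004 in those of *gun1G*. The *gun1W* libraries were below all others, at −1.37 from Col-0 (SE 0.36, adjusted p = 0.00357), and the other 3 groups overlapped. As a share of the plastid total, *rps15* rose by 1.39 in *gun1W* (SE 0.42, adjusted p = 0.0176), a call lost without Col-0 replicate 2 or *gun1W* replicate 1 or 2 (adjusted p up to 0.0756). The log2 ratio of *rps15* to *ycf1.2* was 2.05 for Col-0, 3.07 for *gun1W*, 3.20 for *gun1M* and 1.46 for *gun1G* (exact permutation p = 0.00182, adjusted p = 0.0145), and the *gun1W* and *gun1M* ratios lay above all Col-0 ratios. The ratio to *ndhH* was 1.00 in Col-0 and 1.71, 1.54 and 1.47 in the mutant groups, and missed the threshold (exact p = 0.0213, adjusted p = 0.0682).

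*rps16*, a small-subunit protein gene that several plant lineages have lost from the plastid, was the lowest of the 9 in Col-0. Its scaled TPM was 13.1, 45.2 and 34.1 in the Col-0 libraries, 11.2, 46.6 and 46.3 in those of *gun1W*, 147, 154 and 61.3 in those of *gun1M*, and 71.5, 64.0 and 49.2 in those of *gun1G*. The *gun1M* and *gun1G* libraries were above all Col-0 libraries, and *gun1W* overlapped Col-0. The difference of *gun1M* from Col-0 was 1.99 (SE 0.62, adjusted p = 0.0286), that of *gun1G* 1.12 (SE 0.62, adjusted p = 0.539) and that of *gun1W* 0.09 (SE 0.62, adjusted p = 0.899). The *gun1M* call was lost without Col-0 replicate 1 or *gun1M* replicate 1 or 2 (1.48 to 1.79, adjusted p up to 0.109). Its share of the plastid total rose by 2.83 in *gun1W* (SE 0.60, adjusted p = 0.0022) and by 2.46 in *gun1M* (SE 0.60, adjusted p = 0.00826), from at most 0.00911% in Col-0 to 0.0174 to 0.0689% and 0.0244 to 0.0411%. Against *psbK*, a photosystem II gene that reads in the opposite direction on the other strand, the log2 ratio was −8.04 for Col-0, −4.92 for *gun1W*, −5.03 for *gun1M* and −6.48 for *gun1G* (exact permutation p = 0.00468, adjusted p = 0.0187). All mutant ratios lay above Col-0. Against *matK*, the intron maturase gene on its own strand, the ratio did not pass the test (exact p = 0.67, adjusted p = 0.67).

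*rpl33* and *rps18* are read in that order downstream of *psaJ*. *rps18* had 372, 440 and 192 scaled TPM in the Col-0 libraries, 272, 346 and 526 in those of *gun1W*, 1627, 1099 and 454 in those of *gun1M*, and 503, 610 and 600 in those of *gun1G*. It was above all Col-0 libraries in *gun1M* and *gun1G*, while *gun1W* and Col-0 overlapped. The differences from Col-0 were 1.56 in *gun1M* (SE 0.45, adjusted p = 0.022), 0.85 in *gun1G* (SE 0.45, adjusted p = 0.492) and 0.22 in *gun1W* (SE 0.45, adjusted p = 0.667). The *gun1M* call was lost without Col-0 replicate 3 or *gun1M* replicate 1 or 2 (1.16 to 1.44, adjusted p up to 0.0737). Its share of the plastid total rose by 2.98 in *gun1W* (SE 0.35, adjusted p = 3.95e-05) and by 2.01 in *gun1M* (SE 0.35, adjusted p = 0.00154), and these calls remained without any single library. *rpl33* was much lower, at 49.6, 70.0 and 20.2 scaled TPM in the Col-0 libraries, 24.4, 22.6 and 18.4 in those of *gun1W*, 46.7, 50.8 and 47.9 in those of *gun1M*, and 31.1, 32.1 and 34.6 in those of *gun1G*. Col-0 spanned the range of all 3 mutant groups except the lowest *gun1W* library, and no scaled TPM difference from Col-0 passed the test (*gun1W* −0.90, SE 0.45, adjusted p = 0.0821). Without Col-0 replicate 3 the *gun1W* difference was −1.40 (adjusted p = 0.00481). As a share of the plastid total *rpl33* was higher in *gun1W* by 1.82 (SE 0.42, adjusted p = 0.0043), with all 3 libraries (0.0273 to 0.038%) above those of Col-0 (0.00479 to 0.0141%). The log2 ratio of *rps18* to *rpl33* was 2.90 for Col-0 beside 4.02, 4.24 and 4.08 for *gun1W*, *gun1M* and *gun1G*, and every mutant library lay above every Col-0 library, but the test over the groups missed the threshold (exact permutation p = 0.0999, adjusted p = 0.146). *psaJ* was listed at no more than 27.3 scaled TPM in any library and at 0 in some of *gun1W*, so its ratio to *rpl33* is not interpreted.

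*rpl20*, whose product binds large-subunit rRNA, varied by up to 3.90-fold between libraries of a group. Scaled TPM was 2001, 1871 and 4291 in the Col-0 libraries, 1871, 1173 and 480 in those of *gun1W*, 1873, 856 and 2159 in those of *gun1M*, and 974, 2284 and 2408 in those of *gun1G*. The highest *gun1W* library lay just below the lowest of Col-0, and the other groups overlapped with both. The difference of *gun1W* from Col-0 was −1.31 (SE 0.53, adjusted p = 0.038). It missed the threshold without Col-0 replicate 3 (−0.93, adjusted p = 0.162), without *gun1W* replicate 3 (−0.77, adjusted p = 0.185), and narrowly without *gun1W* replicate 2 or *gun1M* replicate 1 or 3. *clpP*, the protease gene upstream of it, stood at 5680 ± 41.4 scaled TPM in Col-0 and 3231 ± 143 in *gun1W*. The log2 ratio of *rpl20* to *clpP* was −1.17 in Col-0 and −1.66, −2.03 and −1.69 in the mutant groups, with no difference that passed the test (exact permutation p = 0.574, adjusted p = 0.612). *rps12A*, between them, was listed at 0 in libraries of each mutant group and its ratio is not interpreted.

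*rpl32*, a large-subunit protein gene that is essential in tobacco, had 1615, 1135 and 2246 scaled TPM in the Col-0 libraries, 241, 284 and 230 in those of *gun1W*, 681, 307 and 562 in those of *gun1M*, and 328, 1159 and 973 in those of *gun1G*. It was the only 1 of the 9 that was lower than Col-0 in both *gun1W* and *gun1M*, without overlap, with log2 differences of −2.67 (SE 0.45, adjusted p = 1.13e-04) and −1.71 (SE 0.45, adjusted p = 0.0137). The *gun1M* call was narrowly lost without Col-0 replicate 3 (−1.47, adjusted p = 0.0513). In *gun1G* the difference was −1.16 (SE 0.45, adjusted p = 0.252), and 1 of the 3 libraries overlapped with Col-0. The share of the plastid total was 0.229 to 0.533% in Col-0 against 0.341 to 0.401% in *gun1W*, with 0.0821 to 0.224% in *gun1M* and 0.0679 to 0.242% in *gun1G*. It overlapped Col-0 in *gun1W* (0.09, SE 0.51, adjusted p = 0.891), and in *gun1M* it lay below all Col-0 libraries without passing the test (−1.26, SE 0.51, adjusted p = 0.0916). Against *ndhF*, an NAD(P)H dehydrogenase gene on the opposite strand, the log2 ratio was 2.52 for Col-0, 2.53 for *gun1W*, 1.23 for *gun1M* and 1.23 for *gun1G* (exact permutation p = 0.1, adjusted p = 0.146). Against *ycf5*, a cytochrome assembly gene downstream, it was 3.27, 2.94, 1.79 and 1.84 (exact p = 0.0649, adjusted p = 0.146), with the *gun1M* and *gun1G* ratios below all Col-0 ratios.

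**Figure D3:**
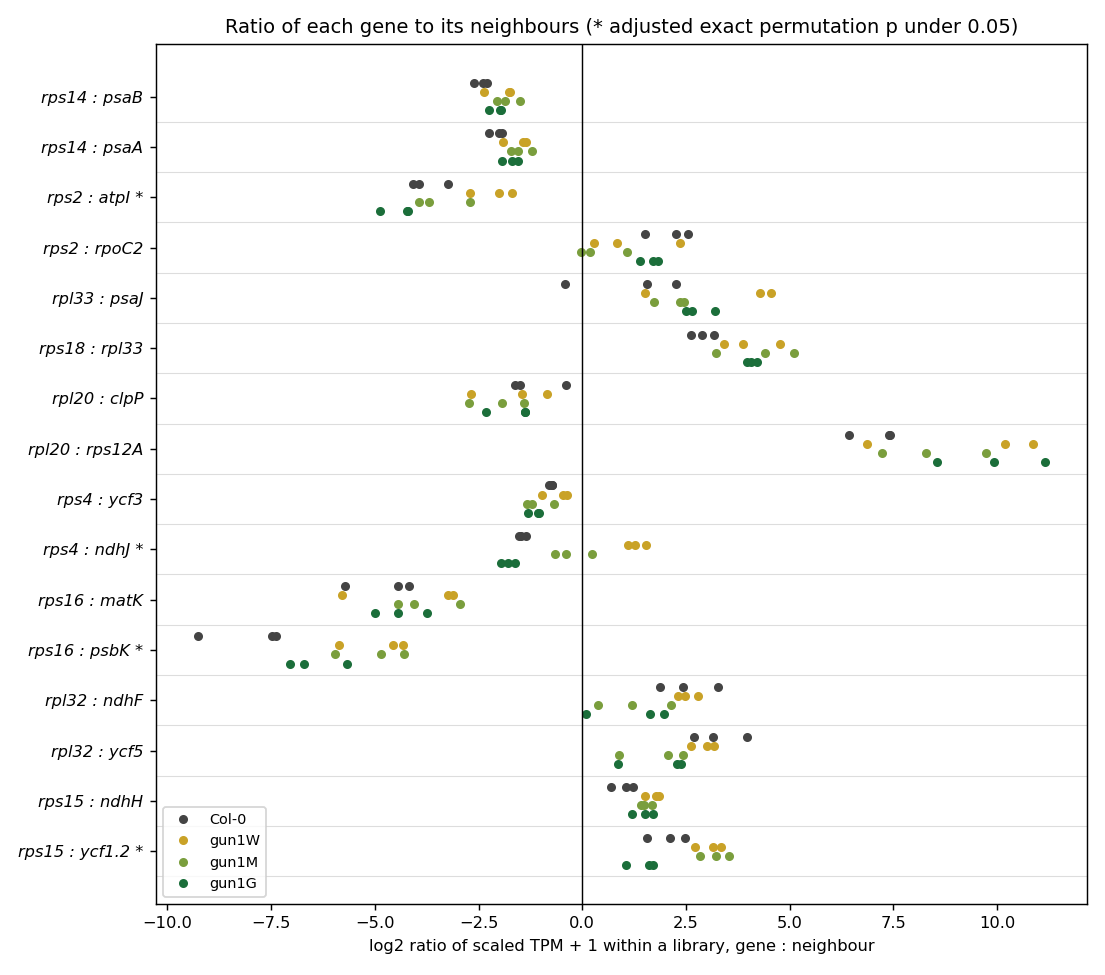
Log2 ratio of each gene to a neighbour within a library (x axis, scaled TPM + 1 in both), with 1 point for each of the 12 libraries and a star at the 4 of 16 pairs that passed the test. The *gun1W* points of *rps4* to *ndhJ* lie to the right of 0 and those of Col-0 and *gun1G* to the left.

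4 of the 16 ratios thus differed over the groups: *rps2* to *atpI*, *rps4* to *ndhJ*, *rps16* to *psbK* and *rps15* to *ycf1.2*. In all 4 the ribosomal protein gene stood higher against its neighbour in *gun1W* than in Col-0. Most of the other pairs had the same direction, but none passed the test. They include the ratios to *psaJ* and *rps12A*, which are not interpreted, and *rps18* to *rpl33*, both among the 9. *rpl32* to *ndhF* differed by only 0.01 (SE 0.62). *rps2* to *rpoC2* (−0.95), *rpl20* to *clpP* (−0.49) and *rpl32* to *ycf5* (−0.33) went the other way. As scaled TPM the 9 fell less in *gun1W* than plastid models as a whole (median −1.15 beside −2.36). Ratios to plastid genes other than these neighbours were not tested. *rps16* and *psbK* lie on opposite strands, and *ndhJ* lies 2848 bases from *rps4*. A comparison of 3 libraries against 3 cannot give a two-sided exact p below 0.1, so single groups were not tested apart. The count was 4 also with 0.1 or 10 added before the log.

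Comparison of *gun1M* with Col-0 gave 3 calls among the 9 as scaled TPM, *rps16* and *rps18* higher and *rpl32* lower, and the background was 11.3% of plastid gene models higher and 24.7% lower. As a share of the plastid total, *rps16*, *rps18* and *rps14* were higher and none was lower, against 20.6% and 7.22% of all models. The median of the 9 was 0.00 as scaled TPM beside −0.43 over all 97. In *gun1G* none of the 9 passed the test against Col-0 on either scale, and 2.06% of all models did as scaled TPM and 3.09% as share. 1 of the 9, *rpl32*, was lower at an unadjusted p under 0.05 on both scales, with a limma adjusted p = 0.252 as scaled TPM and 0.34 as share.

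The mutant groups were also set against each other, since they share the genotype. Against *gun1G*, *gun1W* was lower in *rps14* (−2.91, SE 0.28, adjusted p = 6.17e-07), *rpl32* (−1.52, SE 0.45, adjusted p = 0.00735), *rps15* (−1.40, SE 0.36, adjusted p = 0.00318) and *rps4* (−1.05, SE 0.21, adjusted p = 4.45e-04), with a background of 75.3%. As a share of the plastid total, 7 of the 9 were higher in *gun1W* than in *gun1G*, all but *rps14* (−0.07, adjusted p = 0.806) and *rpl32* (1.32, adjusted p just over 0.05), against 39.2% of all models. That count was 4 without *gun1W* replicate 2 or *gun1G* replicate 1. *gun1M* and *gun1G* differed in none of the 9 as scaled TPM (19.6% of all models were called), and as share only in *rps18*, higher by 1.24 in *gun1M* (SE 0.35, adjusted p = 0.0262, background 16.5%), a call lost without *gun1M* replicate 1 or 2 or any one *gun1G* library (adjusted p up to 0.123). Against *gun1M*, *gun1W* was lower in *rps14*, *rps16*, *rps18*, *rps15*, *rps4* and *rpl33*, with log2 differences of −2.60 to −1.13 (background 73.2%). The *rpl33* call was lost in 9 of the 12 fits that left out 1 library (adjusted p up to 0.102), those of *rps16* and *rps18* without *gun1W* replicate 1 or *gun1M* replicate 1, and that of *rps15* without *gun1W* replicate 3. As a share, *rps2* (1.78, SE 0.49, adjusted p = 0.0193) and *rps4* (1.16, SE 0.22, adjusted p = 0.00433) were higher in *gun1W* than in *gun1M* (background 24.7%), the former lost without *gun1W* replicate 1 or 2 or *gun1M* replicate 1 or 2 (adjusted p up to 0.0825), and 5 others, *rps18*, *rpl20*, *rpl33*, *rpl32* and *rps15*, missed the threshold at adjusted p of 0.0553 to 0.0564.

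The summed scaled TPM of the 9 genes was 8797 to 12206 in Col-0 against 2742 to 4060 in *gun1W*, with 7890 to 10675 in *gun1M* and 7659 to 10933 in *gun1G*, so that only *gun1W* stood apart. Of all plastid TPM their sum took 4.08 to 6.32% in the *gun1W* libraries, above every other library. The range was 1.77 to 2.90% for Col-0, 2.26 to 3.14% for *gun1M* and 1.58 to 2.28% for *gun1G*. A second total added the other plastid-encoded ribosomal protein genes that had a gene model of their own. Joined models, which also hold RNA of such genes, were left out of it. Of this total the 9 held 28.2 to 42.1% in Col-0 against 49.8 to 59.2% in *gun1W*, with 38.9 to 66.8% in *gun1M* and 34.3 to 35.3% in *gun1G*. The 9 therefore made up a larger part of this total in every *gun1W* library than in any Col-0 or *gun1G* library. Within the sum of the 9, *rps14* held 18.6 to 32.1% in Col-0 and 8.96 to 19.6% in *gun1W*. The median share of *rps18* in that sum was 3.92% in Col-0 and 8.96% in *gun1W*. These sums are given without a test.

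**Figure D4:**
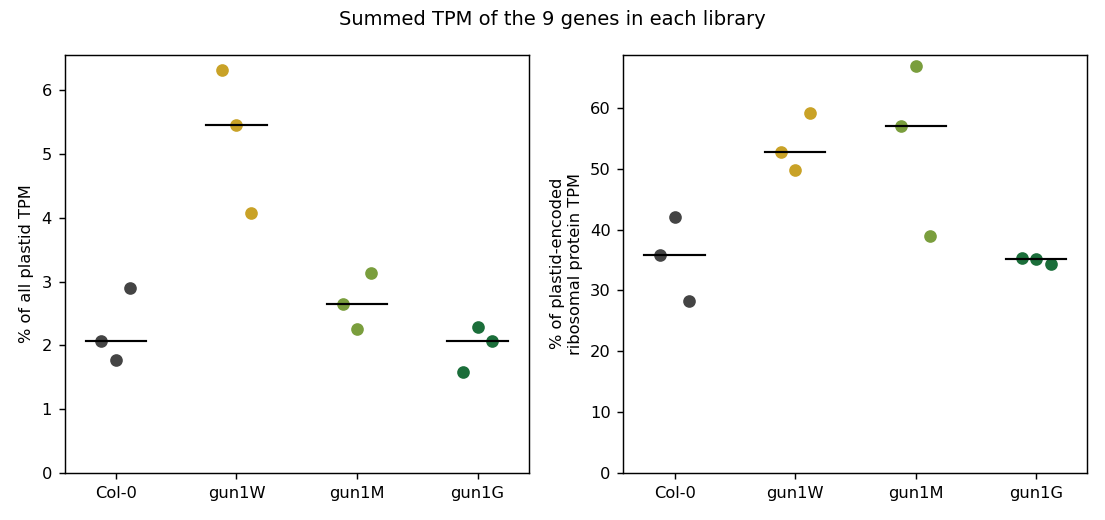
Summed TPM of the 9 genes as a percentage of all plastid TPM (left) and of the TPM of plastid-encoded ribosomal protein genes, joined models left out (right), with 1 point per library and the group median as a bar. On the left the *gun1W* libraries lie between 4.08 and 6.32%, above all others.

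The other plastid-encoded ribosomal protein genes, most of them in the operon from *rpl23* to *rpoA*, gave 13 tested gene models of 17 listed. The others read 0 or were held only in joined models. In *gun1W*, 11 of the 13 were lower than in Col-0 as scaled TPM, at a median of −2.61 beside −1.15 for the dispersed 9. Of all 97 plastid models 79.4% were lower there, at a median of −2.36. In *gun1M*, 5 of the 13 were lower and none higher, at a median of −1.27 beside 0.00. The background was 24.7% lower and 11.3% higher, at a median of −0.43. As a share of the plastid total, 1 of the 13 was higher in *gun1W* and none was lower (median 0.09), beside 6 of the dispersed 9 higher (median 1.61). Of all models 34.0% were higher and 13.4% lower (median 0.30). No difference between the lists was tested. Of 40 nuclear genes of plastid ribosomal proteins, 2 were lower and 2 higher in *gun1W*, at a median of 0.03, where 12.5% and 15.1% of 18373 gene models outside the plastid were lower and higher. The 4 were *PSRP1*, a ribosome-associated factor (−3.07, SE 0.46, adjusted p = 7.11e-04), *PRPL3* (−0.40, adjusted p = 0.0409), *PRPL18* (0.42, adjusted p = 0.0356) and *PRPL9* (0.63, adjusted p = 0.0374). *PSRP1* RNA fell from 129 ± 52.5 to 15.9 ± 10.8 scaled TPM. *PSRP1*, *PRPL18* and *PRPL9* changed to the same side in *gun1M* (−2.67, 0.45 and 0.78) and *gun1G* (−1.65, 0.58 and 0.91). All of these passed the limma test at adjusted p under 0.05, and *PRPL3* passed in neither group. Of the 40, 2 were lower and 5 higher in *gun1M*, beside 13.6% and 15.4% of models outside the plastid. In *gun1G* 1 was lower and 4 higher, beside 3.62% and 5.75%.

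The same libraries were high or low in several of the 9 genes. In Col-0, replicate 3 was the highest library for *rpl20*, *rps2*, *rpl32*, *rps15* and *rps4* and the lowest for *rps14*, *rps18* and *rpl33*. In *gun1M*, replicate 2 was the lowest for *rpl20*, *rps2*, *rpl32*, *rps15* and *rps4*, and replicate 3 the lowest for *rps14*, *rps18* and *rps16*. In *gun1W*, replicate 3 was lowest for *rpl20*, *rps2*, *rpl32*, *rps15*, *rps4* and *rpl33*, and replicate 1 for *rps14*, *rps18* and *rps16*, and in *gun1G* replicate 1 was lowest for the same genes as *gun1W* replicate 3 and for *rps18*. AT3G06365, an RNA of unknown function that the reference places next to the nuclear 5.8S rRNA gene of chromosome 3, took 0.219 to 19.5% of all TPM in single libraries. Its share was highest in its group in *gun1W* replicate 1 (19.5%) and *gun1M* replicate 3 (10.5%), and lowest in *gun1W* replicate 3 (4.02%), *gun1M* replicate 2 (0.745%) and *gun1G* replicate 1 (0.219%). Col-0 did not follow the other groups: replicate 3, the highest for 5 of the 9 genes, had a share of 8.42%, close to the 8.46% of replicate 2, which was the lowest for *rpl20*, *rpl32* and *rps15*, and replicate 1 had 5.71%. With that share as a covariate, an alternative chosen after seeing the data, 6 of the 9 were again called in *gun1W* against Col-0 as scaled TPM and 7 as share. How many of all plastid models were called in that fit was not counted, so these counts do not set the 9 apart. 6 of the 38 calls over both scales and all 6 comparisons were lost with it, and the part of this RNA in the differences between replicates was not tested.

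**Figure D5:**
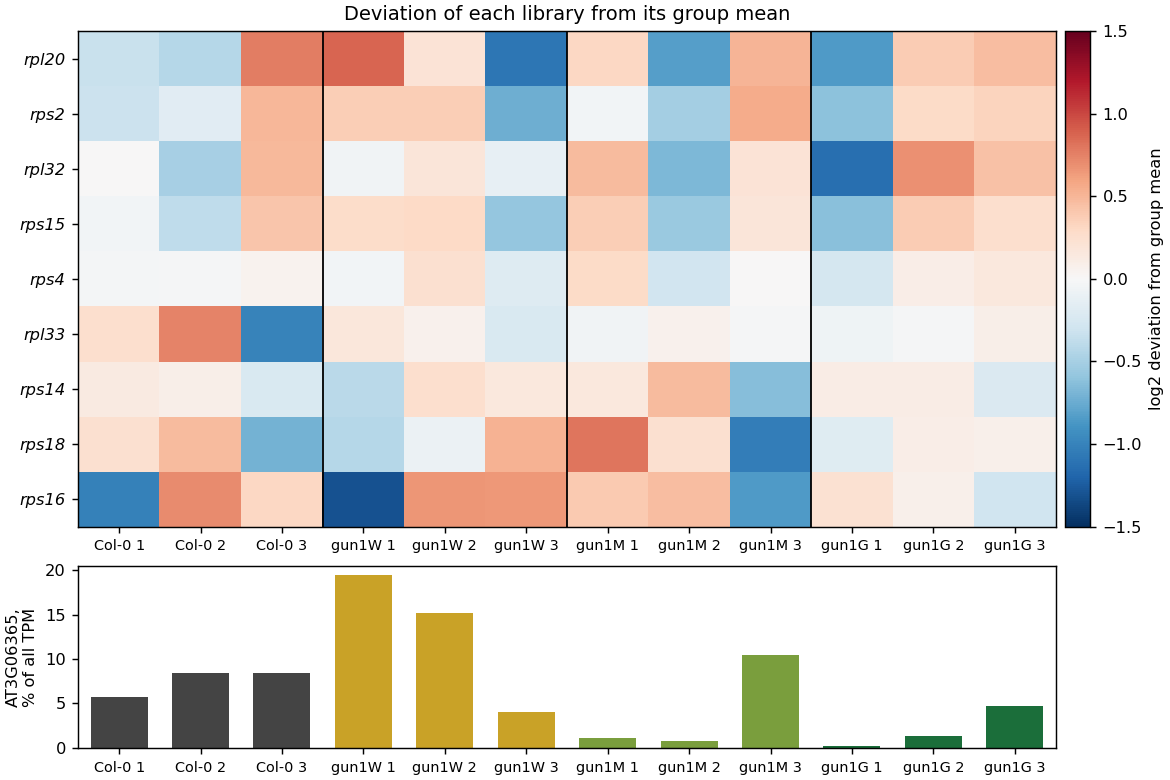
Log2 deviation of each library from the mean of its group for the 9 genes (upper panel, colour, scaled TPM + 1) and the percentage of all TPM taken by AT3G06365 (lower panel, bars from 0) in the same 12 libraries. *rpl20*, *rps2*, *rpl32* and *rps15* deviate to the same side in most libraries, for example in Col-0 replicate 3 (0.77, 0.50, 0.49 and 0.42), where *rps14* and *rps18* deviate to the other (−0.23 and −0.71).

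The plastid gene model most like each of the 9 over the 12 libraries, by Pearson's r of log2(scaled TPM + 1), is given as a description over libraries that share their groups and their scaling. *rps14* was most like *psbH* (r = 0.99) and *petB* (r = 0.99), photosystem II and cytochrome *b*6*f* genes. *rps4* was most like *clpP* (r = 0.97) and *atpA* (r = 0.96). *rps2* and *rpl20*, which lie apart in the genome, were each most like the other (r = 0.93), with *rpl2.1* second for *rps2* (r = 0.86) and the joined model ATCG01300-ATCG01310 for *rpl20* (r = 0.89). *rps15* was most like ATCG00870 (r = 0.95), and *rpl32* most like *rpl2.1* (r = 0.92) and *ndhH* (r = 0.90). *rps18* was most like the joined model ATCG00030-ATCG00040 (r = 0.82) and *rps16* (r = 0.79), *rps16* most like the joined model ATCG00930-ATCG00940 (r = 0.81) and *ycf2.1* (r = 0.80), and *rpl33* most like *psbJ* (r = 0.77) and *ndhD* (r = 0.73).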

How the data were processed

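The 12 RNA libraries, from seedlings of day 4, were grouped by their sample titles, with 3 in each group. The authors deposited TPM per transcript from Salmon with AtRTD3; the submitters' notes also name Trimmomatic, FastQC, STAR and TAIR10, without versions. TPM sums to 1000000 in each library and keeps no depth, so no counting error can be given. The authors' STAR, featureCounts and DESeq2 results for plastid genes were not used here.

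TPM was summed per gene model (each of the 9 genes has 1 transcript) and scaled by the median log2 ratio of the 12490 nuclear genes that reached a TPM of 1 in every library, or divided by the plastid total. The log2 of scaled TPM + 1, or of TPM per 1000000 of the plastid total + 1, went into limma 3.58.1 (R 4.3.3) over the 97 plastid gene models above 0 in at least 3 libraries, with Benjamini-Hochberg adjustment for each comparison. Gene models outside the plastid needed a TPM of at least 1 in 3 libraries. A fold change on these scales understates the change of low genes. Ratios to neighbours were tested by exact permutation of the groups over all 15400 partitions, adjusted over 16 pairs. For each gene the 2 most like plastid models are named, except where an item is not reported here, and of the nuclear list the 4 with the smallest p in *gun1W*. All 9 genes are described. The 9 genes and all lists were chosen with earlier results of these data known. The product names of 38 of the 40 nuclear genes name a ribosomal protein in the reference. Copies were searched with blastn 2.17.0. Scripts were tested on simulated data. Other values added before the log (0.1 and 10), filters, scalings and totals, a replicate block and leaving out each library were tried. Not all predicted sites near the 9 genes are reported here.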

Additional observations from a re-analysis of the deposited data

Results flagged for a closer look

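6 of the 9 genes differed between the mutant groups *gun1W* and *gun1M* by the direct comparison in limma, as log2 scaled TPM and with both groups set against the same Col-0 libraries. All 6 were lower in *gun1W*, as were 73.2% of all 97 plastid models. The change from Col-0 in *gun1W* minus that in *gun1M* was −2.60 for *rps14* (adjusted p = 2.23e-06), −1.16 for *rps4* (adjusted p = 2.27e-04), −1.19 for *rps15* (adjusted p = 0.0103), −1.34 for *rps18* (adjusted p = 0.0154), −1.90 for *rps16* (adjusted p = 0.0144) and −1.13 for *rpl33* (adjusted p = 0.0381). In *rps14*, *rps4*, *rps15*, *rps16* and *rpl33* every *gun1W* library lay below every *gun1M* library, and in *rps18* the groups overlapped. The *rpl33* call was lost in 9 of the 12 fits without 1 library, those of *rps16* and *rps18* without *gun1W* replicate 1 or *gun1M* replicate 1, and that of *rps15* without *gun1W* replicate 3. With TPM as deposited 1 of the 9 was called in this comparison. The background over all plastid models is not given for that fit.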

How the results depend on the processing

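Of 38 member calls in 12 fits (2 scales, 6 comparisons), 26 were kept in every setting other than TPM as deposited and leaving out 1 library, and 16 in every setting. With TPM as deposited the count of called genes was 3 in *gun1W* against Col-0, 1 against *gun1G* and 1 against *gun1M*. The background over all plastid models is not given for this setting. Of the 19 calls made as scaled TPM over all 6 comparisons, 7 were kept in this setting, 11 lost and 1 turned. *rps2* (0.091) and *rpl33* (0.11) in *gun1W* against Col-0 changed sign with it. With all gene models in 1 fit the count for *gun1W* against *gun1M* was 2. As share of the plastid total, *gun1W* against *gun1M* gave 5 calls with a TPM of at least 1 required in all libraries and 7 with a total over protein-coding models. *gun1M* against *gun1G* gave 2 with that total, 2 with the AT3G06365 share as a covariate, which was chosen after seeing the data, 0 with the total without *psbA* and *rbcL*, and 0 with the replicate block.

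Uncalled values near 0 also changed sign. They were the share of *rpl32* in *gun1W* against Col-0 (−0.18 with the covariate, −0.26 without *psbA* and *rbcL*), that of *rps14* (−0.044 without *psbA* and *rbcL*) and the ratio of *rpl32* to *ndhF* (−0.17 with 10 added). The cause of these changes was not tested.

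Leaving out 1 library at a time gave counts of 4 to 6 (*gun1W*), 1 to 3 (*gun1M*) and 0 to 0 (*gun1G*) against Col-0 as scaled TPM, 4 to 4 for *gun1W* against *gun1G*, 0 to 1 for *gun1M* against *gun1G* and 3 to 7 for *gun1W* against *gun1M*. As share these were 5 to 7, 2 to 4, 0 to 0, 4 to 8, 0 to 2 and 1 to 6. Over the same fits the *gun1W* minus Col-0 value ran from −0.90 to 0.016 for the ratio of *rpl20* to *clpP*, −0.32 to 0.38 for *rpl32* to *ndhF*, −0.62 to 0.025 for *rpl32* to *ycf5*, −0.22 to 0.39 for the share of *rpl32*, and −0.42 to 0.74 and −0.14 to 0.46 for *rps16* and *rps18* as scaled TPM.

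Of the 18 same-number correlations of deviations, 6 were over 0.1 among plastid models and 8 among nuclear models, so the numbers were not taken to pair the samples. All 3 between Col-0 and *gun1M* were over 0.1 among nuclear models (0.105 to 0.329) but not among plastid models (−0.12 to 0.148). In that comparison the replicate block kept all calls (3 as scaled TPM and 3 as share). With the block 34 of the 38 calls were kept. The 4 lost were *rps2* (adjusted p = 0.0754) and *rpl20* (adjusted p = 0.0561) in *gun1W* against Col-0 and *rpl33* in *gun1W* against *gun1M* (adjusted p = 0.0527) as scaled TPM, and *rps18* in *gun1M* against *gun1G* as share (adjusted p = 0.0536). The count for *gun1W* against Col-0 as scaled TPM was then 4 in place of 6. TPM keeps no depth, so counting error could not be given, and it weighs most on *rps16* and *rpl33*.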
